A study of Homo sapiens with 8 samples.

Results

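The plasma carriers and acute phase proteins examined here were 10 genes of liver secretion: TTR, RBP4, HP, HPX, AHSG, FETUB, AMBP, ORM1, ORM2 and A1BG. They were chosen by symbol from the deposited FPKM table (fragments per kilobase of gene, scaled to the library total), where each had 1 row among 58735 genes. RNA was measured in 8 libraries of HepG2, an established line of human hepatocellular carcinoma. DNMT3A, which sets new DNA methylation, was overexpressed from a lentivirus in 4 of them (genotype DNMT3A overexpression, library names pLV_EGFP_DN 1 to 4). The other 4 carried a control lentivirus (genotype WT, pLV_EGFP_NC 1 to 4). Time after infection, selection and clonality are not given in the labels, nor whether each library was its own infection. The p-values therefore speak of variation among these 8 libraries, some or all of which may be technical.

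Hepatocytes secrete these proteins into plasma. Transthyretin, encoded by TTR, carries thyroxine and binds the retinol-binding protein encoded by RBP4, so that the small retinol carrier is not lost through the kidney. Haptoglobin (HP) binds free haemoglobin and hemopexin (HPX) binds free haem. AHSG and FETUB encode the fetuins A and B, AHSG being an inhibitor of calcification and FETUB, in mice, an inhibitor of the egg protease ovastacin. AMBP encodes a precursor that is cut into the lipocalin alpha-1-microglobulin and the protease inhibitor bikunin, and ORM1 and ORM2 encode the drug-binding alpha-1-acid glycoproteins. A1BG encodes a plasma glycoprotein of the immunoglobulin superfamily. In inflammation, interleukin-6 and interleukin-1 act on the liver, haptoglobin and alpha-1-acid glycoprotein increase as positive acute phase proteins, and transthyretin and fetuin A decrease as negative ones. Glucocorticoids enhance the induction of alpha-1-acid glycoprotein.

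The promoters differ in how many CG dinucleotides, the substrate of DNMT3A, they hold. RefSeq promoter windows (GRCh38.p14) matched 7 of the 10 genes, and TTR, HP and ORM2 had no entry. The 3 stretches below are shown because they hold few or many CG and belong to a gene that fell (ORM1) and to 2 abundant genes that did not pass the test (AHSG and RBP4). Each is the 250 bases before an annotated start, 5′ to 3′ on the gene's strand, with each CG in capitals.
ORM1, chr9:114322848-114323097, plus strand: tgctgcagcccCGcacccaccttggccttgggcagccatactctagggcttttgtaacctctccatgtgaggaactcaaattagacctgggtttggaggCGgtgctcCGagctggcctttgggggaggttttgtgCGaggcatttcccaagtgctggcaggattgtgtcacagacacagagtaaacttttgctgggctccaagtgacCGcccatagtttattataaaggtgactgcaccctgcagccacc
AHSG, chr3:186612810-186613059, plus strand: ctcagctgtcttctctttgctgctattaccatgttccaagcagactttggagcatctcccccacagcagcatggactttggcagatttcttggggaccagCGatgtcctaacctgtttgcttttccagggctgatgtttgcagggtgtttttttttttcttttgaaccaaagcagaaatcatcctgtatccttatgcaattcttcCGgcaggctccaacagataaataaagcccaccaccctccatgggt
RBP4, chr10:93601236-93601485, minus strand: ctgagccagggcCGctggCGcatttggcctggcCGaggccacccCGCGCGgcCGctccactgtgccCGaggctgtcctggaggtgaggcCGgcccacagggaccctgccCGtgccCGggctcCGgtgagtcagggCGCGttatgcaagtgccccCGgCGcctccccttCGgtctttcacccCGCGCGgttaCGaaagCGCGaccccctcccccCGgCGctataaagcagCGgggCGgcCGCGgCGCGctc
The ORM1 stretch held 5 CG, the AHSG stretch 2 and the RBP4 stretch 31, against a median of 11 over all 35116 windows of this length. RBP4 has windows at 2 further starts, with 7 CG before the outermost start and 12 before the other. These RefSeq starts can differ from the gene coordinates given below. The RBP4 stretch shown lies inside the span of its gene, and the AHSG and ORM1 stretches run past the starts of theirs. The stretches of AMBP and A1BG held 5 CG each, that of HPX 2, and those of the starts of FETUB 1 and 2. A match to the C/EBP motif TTGCNNAA, searched on both strands, was present in the AHSG, HPX and RBP4 stretches and in 1 of the 2 of FETUB, against 9.05% of all windows. The STAT motif TTCNNNGAA (6.57% of windows) was present for A1BG and at 1 further start of RBP4. The interleukin-6 response motif CTGGGAA (9.15%) was present for HPX and at 1 start of FETUB. No stretch held both of these last motifs, which can overlap. The FOXA motif TGTTTAC (2.98% of windows) and the HNF1 motif, present in 2 of the 35116 windows, had no match in the stretches of these 7 genes. DNA methylation was not measured in these libraries, so these counts describe sequence only.

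The libraries held 17232809 to 17626137 recovered reads with DNMT3A and 15911019 to 17677093 in the controls. DNMT3A itself was 8.93 ± 1.33 FPKM in DNMT3A libraries and 3.65 ± 0.178 FPKM in controls (SD, n = 4 each), a log2 fold change of 1.09 (limma adjusted p = 0.000122). Of the 10 listed hepatocyte markers all 10 were tested, and their summed level was 10747 to 13813 FPKM with DNMT3A and 11818 to 12394 FPKM in controls. AFP, of this list, rose to 1143 ± 192 FPKM with DNMT3A, against 370 ± 9.28 FPKM in controls (log2 1.61, limma adjusted p = 4.83e-05). The other 9 did not pass. Of 6 leukocyte markers PTPRC and CD3E were listed at 0 in every library, while LYZ, which encodes lysozyme, was at 325 ± 13.9 FPKM with DNMT3A and 234 ± 32.6 FPKM in controls (log2 0.48, limma adjusted p = 0.00812). The leukocyte list summed to 313 to 344 FPKM with DNMT3A and 197 to 263 FPKM in controls, nearly all of it LYZ. The fibroblast list reached at most 0.0253 FPKM with DNMT3A and 0.0543 FPKM in controls, and the endothelial list at most 0.806 FPKM with DNMT3A and 0.646 FPKM in controls. The part of LYZ or of any marker list in the results was not tested. In a bulk library, fewer cells that express a gene and less RNA per cell cannot be told apart.

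The 10 genes differed widely in level, which FPKM gives per length. AHSG was the most abundant, with a mean of 1159 FPKM with DNMT3A and 1062 FPKM in controls, followed by AMBP, RBP4 and the ORM genes, then TTR and HP, HPX and FETUB, with A1BG at or near 0. With DNMT3A the ranges of neighbours in this order overlapped for ORM2 and ORM1 alone. In controls they overlapped for RBP4 and ORM1, ORM1 and ORM2, HP and TTR, and HPX and FETUB. TTR was below HP in mean level in the controls and above it in every DNMT3A library. Together the 10 genes made up 0.715% to 0.840% of all FPKM with DNMT3A and 0.653% to 0.819% in controls, so the groups overlapped, and AHSG alone was 43.4% to 50.3% of that sum with DNMT3A and 42.8% to 46.7% in controls.

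**Figure D1:**
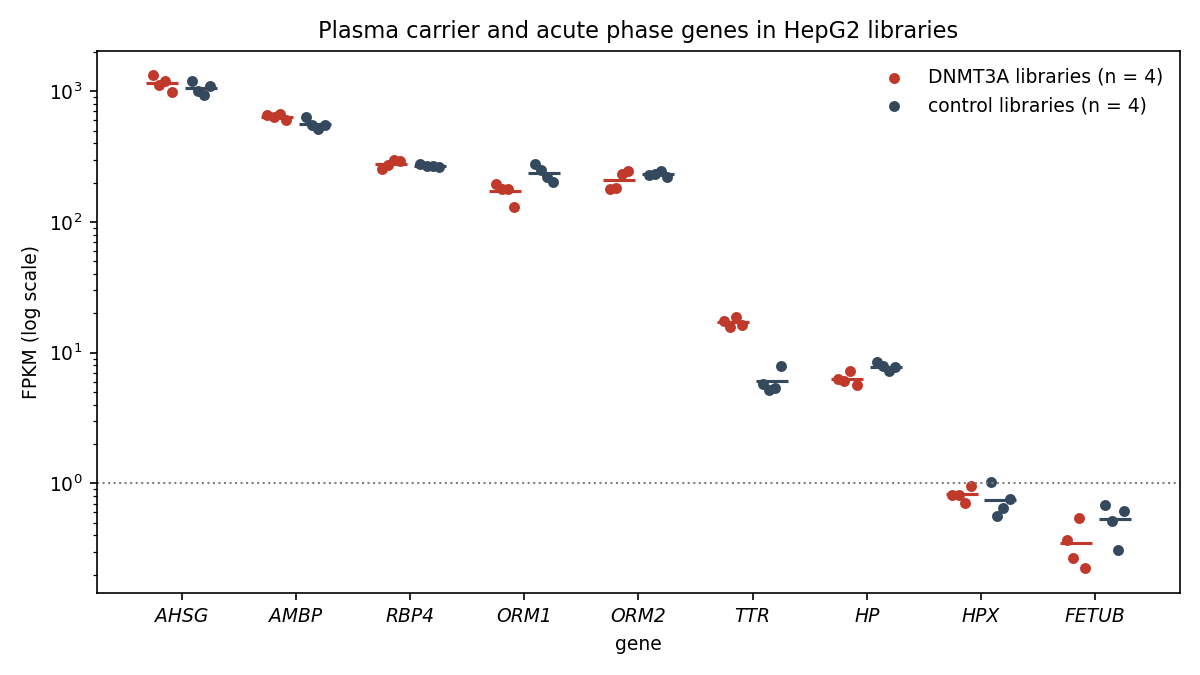
FPKM (log axis) of 9 genes in each library, with DNMT3A libraries in red left of control libraries in dark blue; points are libraries, short lines are means (n = 4) and the dotted line marks the FPKM of 1 used as a filter. TTR separates the groups, at 15.8 to 18.7 FPKM with DNMT3A against 5.14 to 7.85 FPKM in controls; A1BG, at 0 in the controls, is left out because a log axis cannot show it.

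Of the 10 genes 7 had a mean FPKM of at least 1 and were tested; TTR rose, ORM1 and HP fell, and AHSG, AMBP, RBP4 and ORM2 did not pass. Each log2 fold change is the mean of log2(FPKM + 1) with DNMT3A less that in controls, a scale that understates the change of low genes. The test is limma with Benjamini-Hochberg adjustment over all 11620 genes tested, at a threshold of 0.05. Calls covered 3 of 7 genes, against 20.6% of all genes tested, of which 9.93% rose and 10.6% fell. The groups did not overlap for TTR and ORM1, 2 of the 7, against 25.1% of all genes tested (12.1% with DNMT3A above and 13.0% below). Both shares cover few genes, and nothing is read from their difference to the background.

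**Figure D2:**
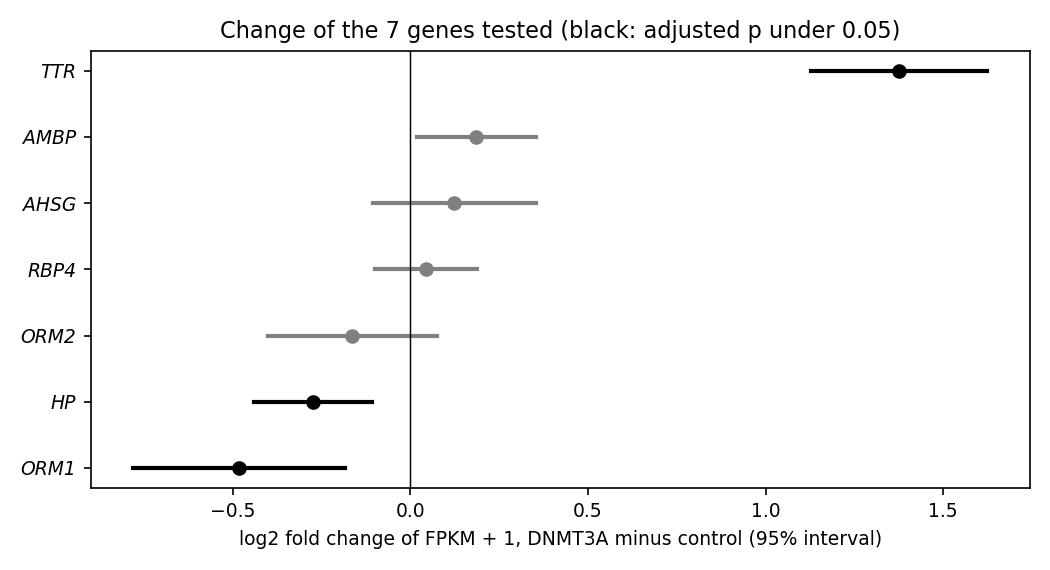
Log2 fold change (log2 of FPKM + 1, DNMT3A less control) of the 7 genes tested, with 95% intervals from limma's moderated variance; black marks an adjusted p under 0.05 and grey the others. TTR stands at 1.38, HP at -0.27 and ORM1 at -0.48, and the intervals of AHSG, RBP4 and ORM2 include 0.

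TTR, the thyroxine carrier, rose most. It was at 17.5, 15.8, 18.7 and 16.3 FPKM in DNMT3A libraries 1 to 4, against 5.79, 5.14, 5.35 and 7.85 FPKM in control libraries 1 to 4. Every DNMT3A library was above every control library, and control library 4 was the highest of the controls. The mean was 17.1 ± 1.30 FPKM with DNMT3A and 6.04 ± 1.24 FPKM in controls (SD, n = 4 each), a ratio of 2.83 and a log2 fold change of 1.38 (SE 0.11, 95% interval 1.13 to 1.62, limma adjusted p = 8.71e-05). These values rest on 686 to 780 recovered reads per library with DNMT3A and 203 to 331 in controls. The TTR gene (ENSG00000118271, hg38 chromosome 18, 31557010 to 31599021, plus strand) has 6 annotated transcripts, and the FPKM divides by their joint exon length of 2395 bases. On the length of the shortest principal transcript, 825 bases, the same reads would stand at a mean of 49.6 FPKM with DNMT3A and 17.5 FPKM in controls, with the ratio between groups unchanged. The call held in all 17 alternatives (log2 1.32 to 1.52).

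RBP4, the partner of transthyretin in plasma, did not pass the test. RBP4 (ENSG00000138207, hg38 chromosome 10, 93591687 to 93601744, minus strand) was at 253, 271, 297 and 294 FPKM in DNMT3A libraries 1 to 4 and 280, 268, 268 and 263 FPKM in control libraries 1 to 4. The groups overlapped, with DNMT3A library 1 the lowest of all 8. The log2 fold change was 0.04 (95% interval -0.10 to 0.19, limma adjusted p = 0.667). The ratio of TTR to RBP4 within a library, which does not depend on library scaling, was 0.0553 to 0.0692 with DNMT3A and 0.0192 to 0.0298 in controls, without overlap. Its log2 was higher by 1.48 with DNMT3A (exact permutation p = 0.0286, two-sided; no smaller p is possible with 70 assignments). Adjusted over the 4 ratios examined, the exact permutation p was 0.0762 and did not pass the threshold. With so few libraries, 1 separated ratio on its own cannot pass after this adjustment, whatever its size. Nothing is therefore read from its not passing.

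**Figure D3:**
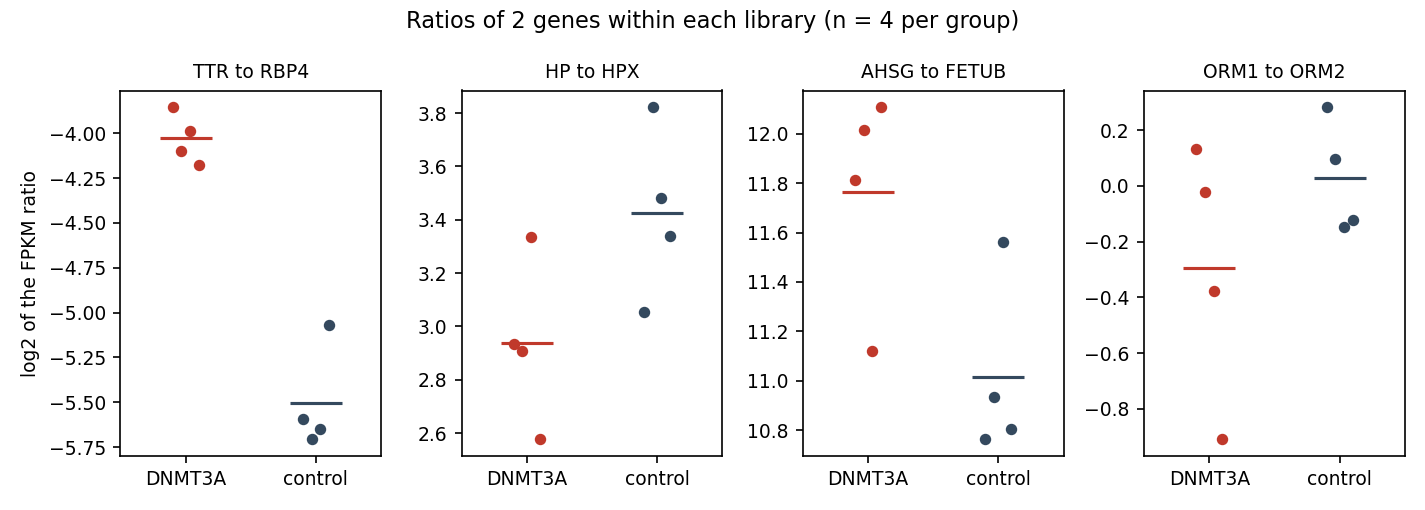
Log2 of the FPKM ratio of 2 genes within each library, DNMT3A left and control right in each panel; points are libraries and lines are means (n = 4), and the vertical scales differ between panels. The TTR to RBP4 ratio separates the groups, and the other 3 overlap.

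The alpha-1-acid glycoprotein gene ORM1 fell, and so did the sum of ORM1 and ORM2. ORM1 was at 196, 179, 178 and 131 FPKM in DNMT3A libraries 1 to 4, against 278, 250, 222 and 204 FPKM in control libraries 1 to 4. The groups did not overlap, DNMT3A library 4 was the lowest, and the nearest values of the groups were 196 and 204 FPKM. The log2 fold change was -0.48 (SE 0.13, 95% interval -0.78 to -0.19, limma adjusted p = 0.0310). ORM2 was at 179, 181, 232 and 246 FPKM with DNMT3A and 229, 234, 246 and 222 FPKM in controls. Here the groups overlapped, and the log2 fold change was -0.16 (95% interval -0.40 to 0.07, limma adjusted p = 0.303). The DNMT3A library with the lowest ORM1, library 4, had the highest ORM2 of the 4.

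ORM1 and ORM2 lie 3394 bases apart on chromosome 9 (hg38, 114323056 to 114326475 and 114329869 to 114333252, both plus strand) and are near-identical copies, so the authors' counting could split their reads. Of all stretches of 100 bases in the main ORM1 transcript, 33.7% occur without a mismatch in ORM2, and of those in the ORM2 transcript, 35.9% occur in ORM1. The separate values are uncertain for this reason, and the ratio of ORM1 to ORM2 was 0.533 to 1.10 with DNMT3A and 0.903 to 1.22 in controls (log2 difference -0.32, exact permutation p = 0.286). The sum was 376, 360, 410 and 378 FPKM in DNMT3A libraries 1 to 4 and 507, 484, 469 and 426 FPKM in control libraries 1 to 4. Each DNMT3A library was below each control library, with a log2 fold change of -0.31 for the sum (SE 0.07, limma adjusted p = 0.0149). Without a filter on low genes the adjusted p was 0.0697 for the sum and 0.113 for ORM1. ORM1 alone also lost its call without DNMT3A library 3 or control library 1, 2 or 3 (limma adjusted p = 0.0552 to 0.0797); the sum kept it in each of these, in settings chosen after the data were seen.

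**Figure D4:**
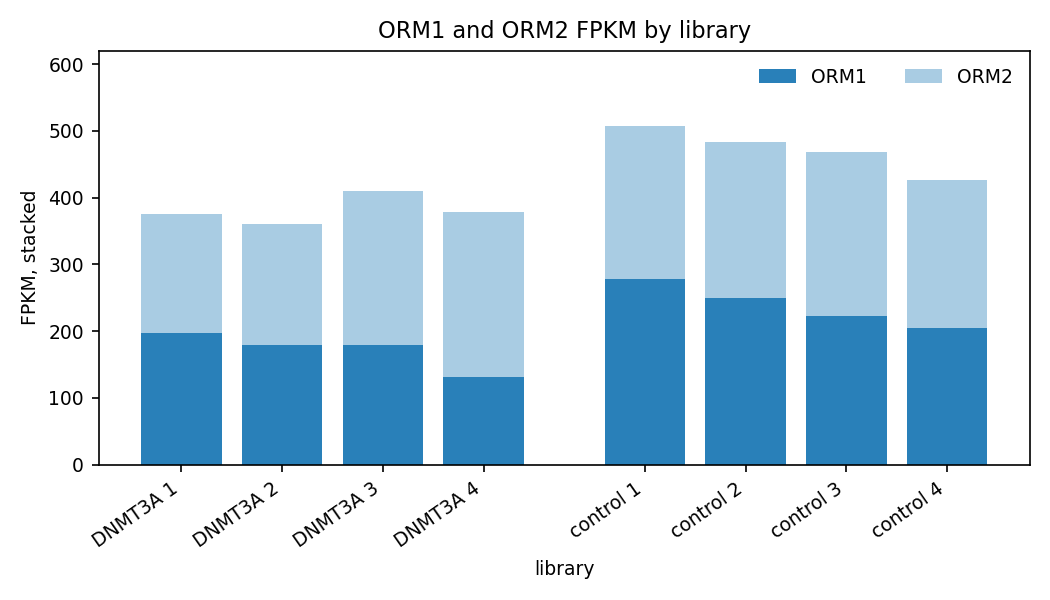
FPKM of ORM1 (dark) and ORM2 (light) stacked for each library, DNMT3A libraries left of control libraries. The stacks reach 360 to 410 FPKM with DNMT3A and 426 to 507 FPKM in controls, while the split between the copies varies from library to library.

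Haptoglobin fell by a smaller amount. HP was at 6.27, 6.10, 7.20 and 5.70 FPKM in DNMT3A libraries 1 to 4 and 8.48, 7.92, 7.19 and 7.76 FPKM in control libraries 1 to 4. DNMT3A library 3 and control library 3 nearly coincided, and the other DNMT3A libraries were below all controls. The log2 fold change was -0.27 (SE 0.07, 95% interval -0.44 to -0.11, limma adjusted p = 0.0289). The adjacent copy HPR, which encodes a haptoglobin-related protein of trypanolytic lipoproteins, was at 3.86 ± 0.731 FPKM with DNMT3A and 4.18 ± 1.23 FPKM in controls (log2 -0.08, limma adjusted p = 0.761). Of all stretches of 100 bases in the shortest principal HP transcript, 16.1% occur in HPR, so reads of these copies could also be split, and the sum of HP and HPR gave a log2 of -0.22 (limma adjusted p = 0.172). The call of HP was further lost in 9 alternatives, namely array weights (limma adjusted p = 0.112), no filter (0.0775), the replicate number as a block (0.0652) and leaving out DNMT3A library 1, 2 or 4 or control library 1, 2 or 4 (0.0525 to 0.0755).

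HP (ENSG00000257017, hg38 chromosome 16, 72054592 to 72061055, plus strand) has 18 annotated transcripts with a joint exon length of 5405 bases, against 1443 for that transcript. On that length its mean would be 23.7 FPKM with DNMT3A and 29.4 FPKM in controls, so on these transcript lengths too HP was below TTR with DNMT3A and above it in controls. TXNL4B lies over HP on the opposite strand and rose, at 6.64 ± 0.330 FPKM with DNMT3A and 5.43 ± 0.476 FPKM in controls (log2 0.25, limma adjusted p = 0.0274). It shares 0 exon bases with HP. TXNL4B lost its call without a filter, with the replicate block and without DNMT3A library 1, 3 or 4 or control library 1 or 3 (limma adjusted p = 0.0530 to 0.0762).

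Hemopexin, the haem scavenger, was low in both groups. HPX was at 0.820, 0.812, 0.713 and 0.955 FPKM with DNMT3A and 1.02, 0.560, 0.644 and 0.767 FPKM in controls, with 45 to 61 reads per library with DNMT3A and 35 to 59 in controls. The groups overlapped. HPX is ENSG00000110169 (hg38 chromosome 11, 6431049 to 6442617, minus strand). It was under the filter and had a log2 of 0.07 in the fit without one (limma adjusted p = 0.751). The ratio of HP to HPX was 5.97 to 10.1 with DNMT3A and 8.31 to 14.1 in controls (log2 difference -0.49, exact permutation p = 0.0571, 0.0762 over the 4 ratios).

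Fetuin A and the bikunin precursor, the most abundant of the 10 genes, did not pass the test. AHSG (ENSG00000145192, hg38 chromosome 3, 186612923 to 186621318, plus strand) was at 1322, 1118, 1204 and 992 FPKM in DNMT3A libraries 1 to 4 and 1187, 1012, 943 and 1104 FPKM in control libraries 1 to 4. The groups overlapped, and the log2 fold change was 0.12 (95% interval -0.11 to 0.35, limma adjusted p = 0.426). AMBP (ENSG00000106927, hg38 chromosome 9, 114060127 to 114078472, minus strand) was at 653, 631, 673 and 599 FPKM with DNMT3A and 632, 554, 511 and 553 FPKM in controls. Control library 1 lay within the DNMT3A range and the other controls below it. Its log2 fold change was 0.19 (95% interval of the unadjusted estimate 0.02 to 0.35, limma adjusted p = 0.110), and it passed the threshold with array weights (0.0139), with voom on recovered reads (0.0487) and without control library 1 (0.0444).

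FETUB lies 14651 bases from AHSG on chromosome 3 and stood at a small fraction of its level. FETUB (ENSG00000090512, 186635969 to 186653141, plus strand) was at 0.368, 0.270, 0.540 and 0.225 FPKM with DNMT3A and 0.682, 0.517, 0.312 and 0.617 FPKM in controls, from 8 to 19 reads per library with DNMT3A and 10 to 22 in controls. The groups overlapped, and without a filter the log2 was -0.18 (limma adjusted p = 0.435). AHSG exceeded FETUB by a factor of 2229 to 4412 with DNMT3A and 1740 to 3021 in controls (log2 difference 0.75, exact permutation p = 0.0571, 0.0762 over the 4 ratios).

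A1BG (ENSG00000121410, hg38 chromosome 19, 58345178 to 58353499, minus strand) was close to absent. It had 2, 6, 2 and 4 reads in DNMT3A libraries 1 to 4 and 0 reads in every control library. Over the group there were 14 reads against 0. Taking the 14 as exact and 3 reads as the limit that a count of 0 allows over the 4 controls, the share of reads would be at least 4.46-fold higher with DNMT3A. With 0 control reads the ratio itself cannot be given. This figure allows for counting error of the controls only, not for that of the 14 reads or for spread between libraries. Without a filter the limma adjusted p was 0.0962, where 5.24% of 30436 genes were called. The antisense gene A1BG-AS1 had 2 reads over the DNMT3A libraries and 1 over the controls. AC012313.3 overlaps A1BG on the same strand, at a mean of 0.120 FPKM with DNMT3A and 0.145 FPKM in controls. AC012313.10 overlaps it on the opposite strand, at 0.136 FPKM with DNMT3A and 0.130 FPKM in controls. No strand-marking step is named in the protocol, so reads of the overlapping genes cannot be told apart.

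The nearest tested protein-coding genes on each side were examined as well. The desmosomal cadherin gene DSG2, 8002 bases from TTR, had a log2 of -0.09 (limma adjusted p = 0.319), and B4GALT6 on the other side had 0.26 and did not pass, except with array weights (limma adjusted p = 0.0446) or without DNMT3A library 2 (0.0191). Of 25 other genes tested within 5 Mb of the start of TTR, 4 rose and 1 fell, with a median log2 of 0.02. COL27A1, between AMBP and ORM1, had a log2 of 0.24 (limma adjusted p = 0.132, and 0.0486 with the replicate block), and KNG1, the kininogen gene beyond FETUB, had -0.09 (limma adjusted p = 0.553). The chaperone gene DNAJB11, on the other side of AHSG, was called higher at a log2 of 0.21 (limma adjusted p = 0.0489), and lost this in 10 of 17 alternatives, namely no filter, no trend, the replicate block and leaving out any 1 DNMT3A library or control library 1, 3 or 4 (limma adjusted p = 0.0511 to 0.129). Of other nearest tested genes, CEP55 beside RBP4 fell (log2 -0.29, limma adjusted p = 0.0133), ARFIP2 beside HPX rose (log2 0.29, limma adjusted p = 0.0104) and ZNF837, a zinc finger gene beside A1BG, fell (log2 -0.63, limma adjusted p = 0.00790). Of the 15 nearest genes 4 passed and 11 did not, against 20.6% called of all genes tested, and nothing is read from the difference.

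The genes whose pattern over the 8 libraries was most like that of TTR, by Pearson's r of log2(FPKM + 1), were PXDC1 (0.990), NIPA1 (0.989) and DUSP6 (0.988). PXDC1 was at 15.7 ± 0.561 FPKM with DNMT3A and 8.28 ± 0.470 FPKM in controls, and DUSP6, a phosphatase that acts on ERK, was at 13.4 ± 1.18 FPKM with DNMT3A and 6.18 ± 0.654 FPKM in controls (SD, n = 4 each). For ORM1 they were CCDC107 (0.986), ARPC2 (0.983) and EFEMP2 (0.980). CCDC107 (log2 -0.46) and EFEMP2 (log2 -0.35) fell, and ARPC2 (log2 -0.17) did not pass, except with array weights (limma adjusted p = 0.0435). CCDC107 lost its call with a pseudocount of 0.1, without a filter and without DNMT3A library 3 or 4 or control library 1, 2 or 3 (limma adjusted p = 0.0504 to 0.131). EFEMP2 lost it without a filter and without DNMT3A library 1, 3 or 4 or control library 1, 2 or 3 (limma adjusted p = 0.0545 to 0.0995). These libraries share the difference between the groups, which contributes to each of these r values.

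Among 26 other acute phase genes 17 were tested, of which 5 rose, 2 fell and 10 did not pass, with a median log2 of 0.13 against -0.01 over all genes tested. Across all genes tested 9.93% rose and 10.6% fell, and nothing is read from the counts of this list or of those below against these shares. The 3 fibrinogen chains rose: FGB was at 107 ± 9.13 FPKM with DNMT3A and 34.5 ± 1.52 FPKM in controls, with log2 values of 1.61 for FGB, 1.22 for FGA and 0.94 for FGG. FGL1 (log2 0.34) and CFB, complement factor B (log2 0.41), also rose, but CFB lost its call without a filter and without DNMT3A library 2 or control library 1, 2 or 3 (limma adjusted p = 0.0513 to 0.0795). LCN2, an iron-siderophore binding lipocalin, fell to 2.76 ± 0.413 FPKM with DNMT3A, against 5.71 ± 0.454 FPKM in controls (log2 -0.84, limma adjusted p = 0.000382), and HAMP, which encodes hepcidin, fell (log2 -0.45). SERPINA1, alpha-1-antitrypsin (log2 0.08), and fibronectin, FN1 (log2 0.22), did not pass, except FN1 without control library 4 (limma adjusted p = 0.0490). CRP, C9 and APCS were listed at 0 in every library. FGL1, CFB, HAMP, CRP, C9 and APCS are named here after their values were seen.

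Of 15 other plasma carriers 10 were tested, of which 1 rose and 0 fell (median log2 0.08): APOM, a lipocalin of high-density lipoprotein, was at 34.8 ± 3.44 FPKM with DNMT3A and 23.2 ± 3.86 FPKM in controls (log2 0.58, limma adjusted p = 0.00814). Albumin, ALB, had a log2 of 0.00 and APOA1 of 0.09. APOM and LCN2 were also the 2 called of 4 tested among 15 other lipocalins, the protein family of RBP4, AMBP and the ORM genes, where LCN15 (log2 -0.33) and C8G (log2 -0.05) did not pass, except LCN15 without DNMT3A library 2 (limma adjusted p = 0.0465) and with array weights (0.0422).

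Of 12 listed cystatins and heavy chains of the inter-alpha-trypsin inhibitor, 6 were tested, 0 rose and 3 fell, all 3 being cystatins. Of all genes tested 10.6% fell, and nothing is read from the difference. KNG1, also of this list, did not pass (log2 -0.09). The fetuins belong to the cystatin superfamily, and bikunin joins the heavy chains. CST3 was at 174 ± 21.4 FPKM with DNMT3A and 262 ± 21.3 FPKM in controls (log2 -0.59, limma adjusted p = 0.00329), with CSTB at a log2 of -0.53 and CSTA at -0.44. The heavy chain genes ITIH2 (log2 0.18) and ITIH3 (log2 0.27) did not pass, nor did AMBP, but with array weights all of these passed (limma adjusted p = 0.0246 for ITIH2, 0.0264 for ITIH3 and 0.0139 for AMBP). CSTA and CSTB lost their calls without a filter (limma adjusted p = 0.0779 and 0.0750) and without control library 1 (0.0586 and 0.0510), and CSTA also without control library 2 (0.0540).

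Retinoid handling genes, 10 of 24 of them tested, included 3 that rose and 2 that fell. ALDH1A1, which makes retinoic acid, was at 171 ± 4.39 FPKM with DNMT3A and 234 ± 19.2 FPKM in controls (log2 -0.44, limma adjusted p = 0.00225), and the cellular retinol-binding gene RBP5 fell (log2 -0.38). RDH11 (log2 0.32), RXRB (log2 0.36) and RETSAT (log2 0.20, named after its value was seen) rose, and RXRA (log2 0.03) did not pass. RXRB lost its call without a filter, with the replicate block and without DNMT3A library 1 or 3 or control library 2 or 3 (limma adjusted p = 0.0506 to 0.0752). RETSAT lost it with the replicate block and without DNMT3A library 1 or 3 or control library 1, 2 or 3 (limma adjusted p = 0.0620 to 0.0980). Of 12 genes of thyroid hormone handling 7 were tested and 1 rose, KLF9 (log2 0.52), while the thyroxine-binding globulin gene SERPINA7 had a log2 of 0.07. Of 13 genes listed under haem disposal 12 were tested and 1 fell, FECH (log2 -0.29, limma adjusted p = 0.00985). FECH encodes ferrochelatase, an enzyme that makes haem and does not dispose of it. The other 11 did not pass, among them HMOX1 (log2 -0.33) and LRP1, the receptor for hemopexin (log2 0.02). HMOX1 passed in 4 of 17 alternatives, namely without DNMT3A library 2 (limma adjusted p = 0.0175), with array weights (0.0193), with voom on recovered reads (0.0374) and over protein-coding genes only (0.0404).

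**Figure D5:**
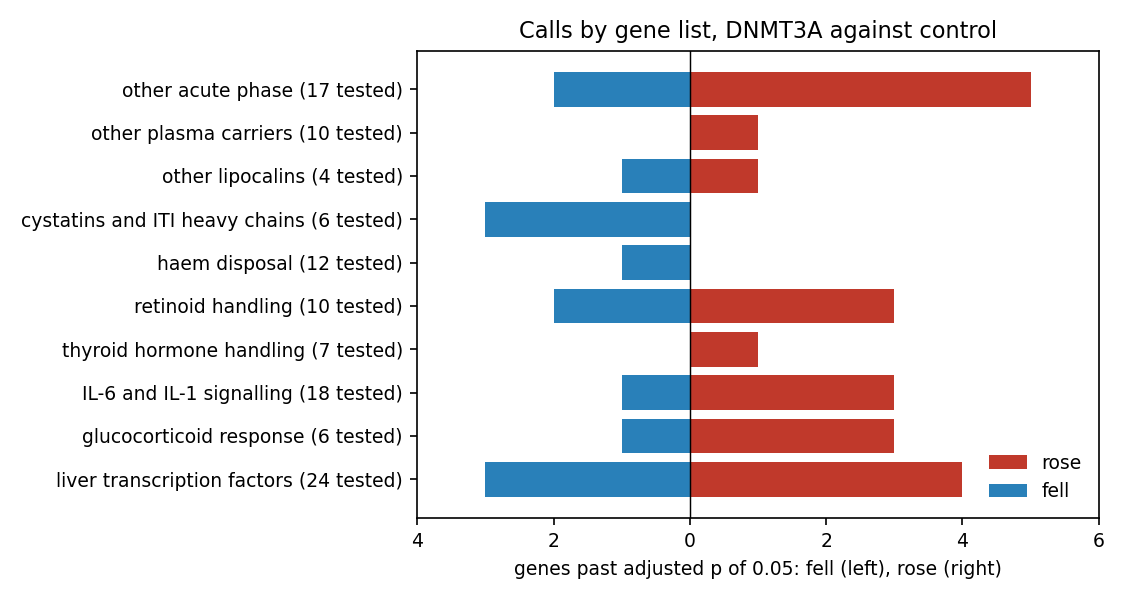
Number of genes past a limma adjusted p of 0.05 in each of 10 lists, those that fell drawn to the left and those that rose to the right, with the number tested in brackets; some genes stand in more than 1 list. The other acute phase list has 5 that rose and 2 that fell, and the cystatin list has 0 that rose and 3 that fell. Of all genes tested 9.93% rose and 10.6% fell.

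Of 18 tested genes of interleukin-6 and interleukin-1 signalling (21 listed) 3 rose, 1 fell and 14 did not pass: the receptor genes IL1R1 (log2 0.47, limma adjusted p = 0.00234) and IL1RAP (log2 0.43) and the oncostatin M receptor gene OSMR (log2 0.21) rose, IRAK4 fell (log2 -0.27), and IL6ST, the shared receptor chain gp130, had a log2 of 0.00. Of 6 tested glucocorticoid response genes (11 listed) KLF9, DUSP1 (log2 0.55) and SGK1 (log2 0.27) rose, and HSD11B2, which inactivates cortisol, fell (log2 -0.92, limma adjusted p = 0.000258). The receptor gene NR3C1 (log2 -0.10) and FKBP5 (log2 -0.11, limma adjusted p = 0.210) did not pass. Of 24 tested liver transcription factors (26 listed) 4 rose and 3 fell. CEBPA, a C/EBP factor of hepatocyte genes, was at 23.1 ± 4.98 FPKM with DNMT3A and 45.3 ± 4.76 FPKM in controls (log2 -0.96, limma adjusted p = 0.00199). CEBPB, the related factor of the acute phase response, had a log2 of -0.18 (limma adjusted p = 0.310) and HLF of 0.13, which passed without DNMT3A library 2 (limma adjusted p = 0.0302) and with array weights (0.0321). NR2F2 (log2 -0.51) and CEBPG (log2 -0.31) fell, and ONECUT2 (log2 0.45), USF1 (log2 0.41), FOXA3 (log2 0.38) and NR5A2 (log2 0.26) rose; CEBPG, FOXA3 and NR5A2 are named after their values were seen.

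Several of these calls depended on the processing or on single libraries. OSMR lost its call in 9 of 17 alternatives, namely no filter, no trend, the replicate block and leaving out DNMT3A library 1, 3 or 4 or control library 1, 2 or 3 (limma adjusted p = 0.0509 to 0.110). IRAK4 lost it in 10, namely no filter, median-ratio scaling, the replicate block and leaving out any 1 DNMT3A library or control library 2, 3 or 4 (limma adjusted p = 0.0539 to 0.130). SGK1 lost it in 9, namely no filter, quantile normalization, the replicate block and leaving out DNMT3A library 1, 3 or 4 or control library 2, 3 or 4 (limma adjusted p = 0.0515 to 0.117). NR5A2 lost it in 10, namely no filter, quantile normalization, the replicate block and leaving out DNMT3A library 1, 3 or 4 or any 1 control library (limma adjusted p = 0.0579 to 0.118). FOXA3 lost it in 2, namely leaving out control library 3 (limma adjusted p = 0.0543) and no filter (0.0632). Of all genes tested 20.6% were called, and nothing is read from the counts of these 3 lists against that share.

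The 10 lists together held 165 distinct genes, of which 107 were tested, 19 rose and 13 fell, a share of 29.9% against the 20.6% of all genes tested. The lists were drawn up with earlier results of these libraries known, so the 2 shares are given as a description only.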

How the data were processed

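Poly(A) RNA of 8 HepG2 libraries was sequenced. The submitters' processing notes name HISAT2 2.0.5 and hg38. How reads were counted is not given in the sources used here. Per the file headers, the authors deposited FPKM values in 1 column per library, with a gene length column. The coordinates of 58735 of 58735 genes equalled those of GENCODE 29. Multiplied by gene length and divided by 1 constant per library, 100% of FPKM values came out whole (within 0.01), and these whole numbers were used as reads. FPKM depends on the library total, so a change in abundant genes shifts all others.

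Titles gave the groups. Genes averaging 1 FPKM or more were compared with limma 3.58.1 in R 4.3.3 on log2(FPKM + 1), with an intensity trend. On simulated data over 11620 genes with the spread of these libraries, changes of 0.3 on the log2 scale were recovered in 38.8% of cases. Those of 0.5 were recovered in 75.6%, those of 1 in 97.4% and those of 2 in 99.6%, and 4.6% of calls were false. The simulation changed a far smaller share of genes than the 20.6% called here, and none of low level. Its shares therefore do not carry over directly to this comparison. Ratios within libraries were compared with exact permutation tests. Shared stretches were counted in GENCODE transcripts, and promoter stretches came from RefSeq. The 10 genes, the lists and the tests were chosen with earlier results of these data known. From each list, the text names up to 4 called genes, by size of change, and up to 2 uncalled ones, by level, with the nearest tested coding genes, overlapping genes and the 3 most like TTR and ORM1. Alternatives were quantile normalization, median-ratio scaling, a pseudocount of 0.1, no filter, protein-coding genes only, array weights, no trend, voom on the recovered reads, the replicate block, summed copies and leaving out each library. Settings for the summed copies were chosen after seeing the data. Intervals and limits on reads cover counting or library spread only.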

Additional observations from a re-analysis of the deposited data

Results flagged for a closer look

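In 3 of 161 groups of 4 libraries, 1 library stood far from the others; chance gives about 1 in 20. None of the 10 plasma protein genes or the log2 of their ratios was among them. The TTR to RBP4 ratio itself was 0.0298 in control library 4, against 0.0192 to 0.0207 in control libraries 1 to 3. RDH11 had a lowest control value of 11.5 FPKM in library 3, and NR2F2 a highest control value of 8.62 FPKM in library 2. EFEMP2 had a lowest DNMT3A value of 0.832 FPKM, in library 4.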

How the results depend on the processing

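TTR rose and RBP4, AHSG and ORM2 did not pass under each of their 17 alternatives. The number of the 10 genes past the threshold was 3, against 1 without a filter and 1 to 2 when leaving out 1 library in turn (1 without control library 2). With the replicate block it was 2, since HP lost its call, and with voom it was 4. Of all 11620 genes tested 2389 passed, against 3756 with array weights, 1881 with the replicate block and 1508 to 2443 when leaving out 1 library (1508 without control library 3 and 1551 without control library 2). Without a filter 1596 of 30436 genes passed, a share of 5.24% against 20.6%. The replicate numbers gave no clear pairing of the libraries: deviations of same-numbered libraries correlated at -0.0816 to 0.159, and not every library correlated best with its own number. With 4 libraries per group, these values cannot settle whether same-numbered libraries were handled together. The 4 ratios kept their direction in every alternative and passed the threshold in none; leaving out 1 library, the smallest exact permutation p is 0.0571, and with the replicate block it is 0.125. Depth limits HPX, FETUB and A1BG. Of 44 called genes named beside the 10, AFP not counted, 30 kept their call in every alternative and 14 lost it in at least 1.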
